A study of Homo sapiens with 6 samples.

Results

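Mitotic spindle, kinetochore and kinesin genes were described as a set of 56 named genes, chosen by symbol for their work in cell division, with earlier results of these data known. Of the 56 genes, 47 had an array feature that the platform annotation names with that symbol, out of 14884 named genes in all. TPX2, CENPF, NUF2, SPC24, SPC25, ANLN, DLGAP5, ASPM and UBE2C had no named feature and were left out. Expression was measured on 6 single-colour arrays of total RNA from SUM159, a human breast carcinoma cell line of the triple-negative class. The drug group was 3 samples kept for 72 h in 1 µM decitabine, a nucleoside that enters DNA during replication and captures DNA methyltransferases. The untreated group was 3 samples kept for 72 h in medium labelled as not treated, and the labels do not say whether it held the drug's solvent. The untreated titles also name 1 µM, and the treatment label was followed instead. All cells were of this single line and grew with serum, insulin and hydrocortisone, and the labels do not state whether replicates came from separate cultures.

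In dividing cells the kinase CDK1 joins B-type cyclins to start mitosis, and the kinases PLK1, Aurora A and Aurora B then order the steps that follow. Kinesins are motors that build and pull on the spindle, and kinetochores are the protein plates at centromeres that hold its microtubules. Most of these genes are transcribed in waves that peak late in the cycle, under the factor FOXM1 and the MuvB complex, so in bulk RNA their level also follows the share of cells near division. In bulk samples a change in the share of such cells and a change in RNA per cell cannot be told apart.

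Mitotic genes were mostly higher after decitabine, by small amounts. Of the 47 measured members 16 rose, none fell and 31 did not pass the test, where a gene is said to have risen or fallen if its adjusted p was under 0.05 in a limma fit that pairs arrays by replicate number. That is 34% of the members, while 7.79% of all 14884 genes rose and 5.37% fell. The median change, decitabine minus untreated on the log2 scale, was 0.35 over the members and -0.02 over all genes, and 41 members had a positive change against 6 with a negative one. All 47 members were among the 7442 genes of higher mean signal, where 11.6% rose and the median change was 0.01. The changes ran from -0.35 for SKA1 to 1.68 for KIF20A. Changes of at least 1, which is at least 2-fold, were seen for 3 members (KIF20A, CDK1 and CENPI), changes of 0.5 to 1 for 14 members, and smaller positive changes for 24.

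Without the pairing, the fit with group alone called 3 members, KIF20A, CDK1 and CENPI, against 2.01% of all genes higher and 1.02% lower, and none fell. The other 13 calls therefore rest on the pairing, and both adjusted p-values are given below. The 3 decitabine values lay wholly above the 3 untreated values for 30 members (11.3% of all genes, and 19% of the 7442 of higher mean signal) and wholly below for 1 (8.74% of all genes). At an unadjusted p under 0.05 in the paired fit, 27 members were higher, against 15.4% of all genes, and 1, SKA1, was lower, against 12.9%. When both arrays of any replicate number were left out, the paired fit called none of the 14884 genes. At an unadjusted p under 0.05, 19 to 22 members were then higher, against 9.49 to 13.3% of all genes.

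**Figure D1:**
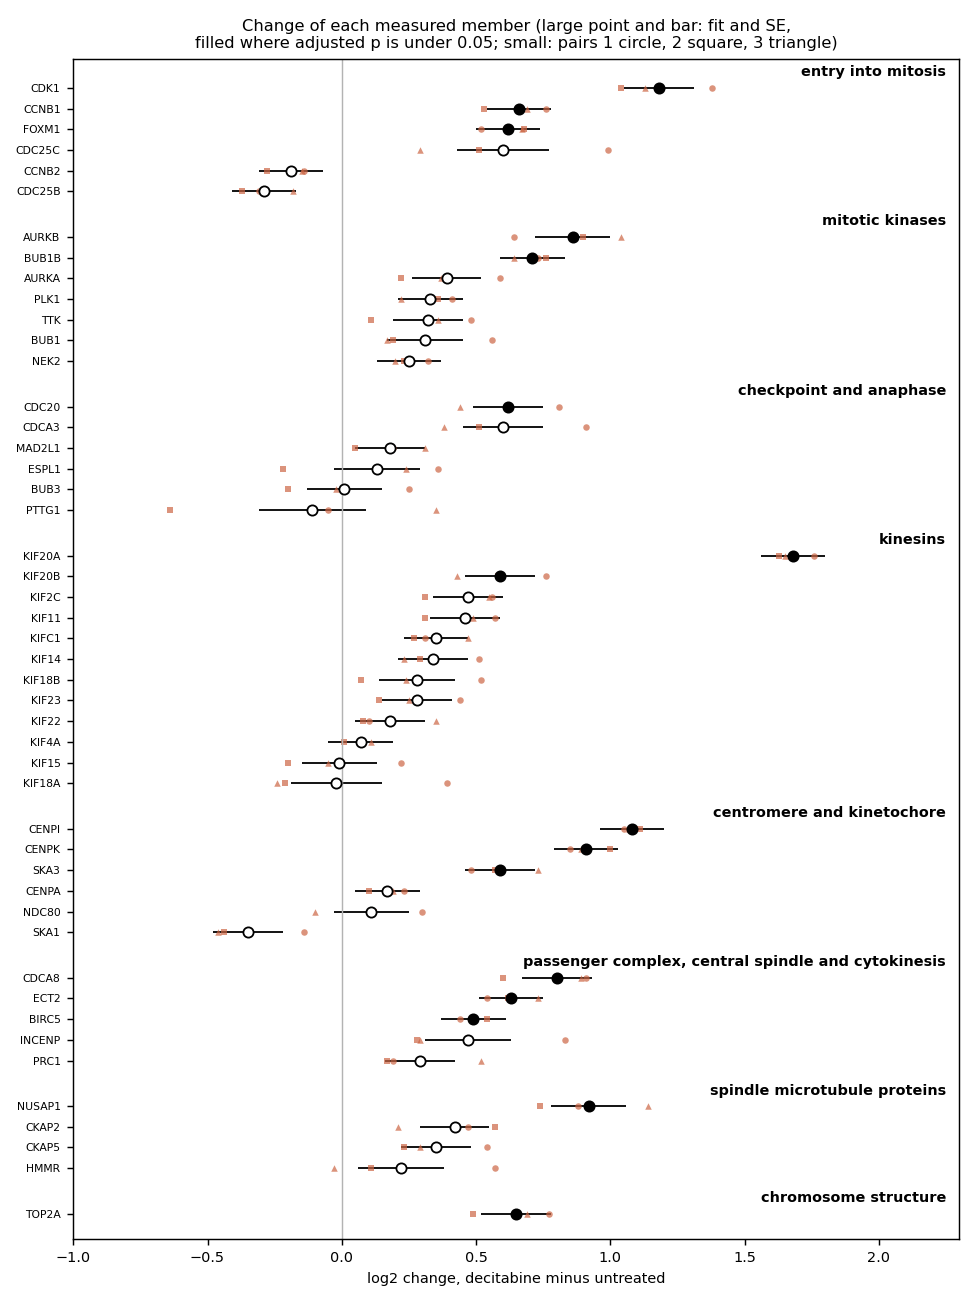
Change of each of the 47 measured members, decitabine minus untreated on the log2 scale, grouped by role. Large points with bars are the paired limma change and its SE, filled for the 16 members with an adjusted p under 0.05, and small symbols are the 3 pairs. KIF20A stands alone at 1.68, and the 6 members to the left of 0 include SKA1, CDC25B and CCNB2.

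Promoters of these genes are known for CCAAT boxes, which bind the factor NF-Y, and for the cell cycle genes homology region, whose core is written TTTGAA and which binds the MuvB complex. RefSeq windows of 300 bases, 250 before and 50 after an annotated start (GRCh38.p14), matched 42 of the 47 members by symbol and gave 53 windows, since 7 members had more than 1. On either strand TTTGAA was present in 33 of these 53 windows (62.3%) and in 15.2% of all 35116 windows. CCAAT was present in 39 of 53 (73.6%) and in 34.6% of all windows. The E2F-type sequences TTTCCCGC or TTTGGCGC were present in 3 of 53 (5.66%) and in 2.27% of all windows. By gene, TTTGAA was found for 9 of the 14 matched members that rose and 21 of the 28 that did not pass the test, and CCAAT for 11 of 14 and 23 of 28. Among 10749 measured genes with windows the shares were 15.3% for TTTGAA and 41.4% for CCAAT. For 4 members (AURKB, CENPI, KIFC1 and CKAP2) every window lay inside the gene, so the bases before the gene were not read. A match is a description of the letters only. Forms of the homology region other than TTTGAA were not searched for, so a window without TTTGAA is not shown to lack the region. Other E2F-type sequences were not searched for either, so a window without the forms named above is not shown to lack E2F sites.

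The 250 bases before the outermost annotated start are shown for KIF20A, CDK1 and NUSAP1, which are among the 4 members with the largest changes, and for the cyclin pair CCNB1 and CCNB2, whose changes had opposite signs. Capitals mark CCAAT and TTTGAA on either strand, so that CCAAT on the opposite strand reads ATTGG.
KIF20A, chr5:138178862-138179111, plus strand: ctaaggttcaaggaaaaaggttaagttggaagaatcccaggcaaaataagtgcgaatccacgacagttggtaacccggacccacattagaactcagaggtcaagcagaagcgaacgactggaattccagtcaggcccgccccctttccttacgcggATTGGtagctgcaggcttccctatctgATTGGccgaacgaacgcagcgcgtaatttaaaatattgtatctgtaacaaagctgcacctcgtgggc
CDK1, chr10:60778081-60778330, plus strand: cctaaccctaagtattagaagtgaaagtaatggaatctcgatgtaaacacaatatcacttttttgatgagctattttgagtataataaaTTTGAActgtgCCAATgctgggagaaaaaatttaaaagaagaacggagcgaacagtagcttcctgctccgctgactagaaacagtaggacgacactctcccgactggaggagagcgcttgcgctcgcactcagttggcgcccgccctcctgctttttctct
NUSAP1, chr15:41332631-41332880, plus strand: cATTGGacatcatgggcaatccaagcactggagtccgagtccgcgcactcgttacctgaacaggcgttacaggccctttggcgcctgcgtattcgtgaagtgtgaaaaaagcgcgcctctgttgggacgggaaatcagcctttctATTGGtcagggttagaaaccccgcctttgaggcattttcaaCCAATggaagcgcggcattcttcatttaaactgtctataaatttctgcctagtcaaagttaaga
CCNB1, chr5:69166900-69167149, plus strand: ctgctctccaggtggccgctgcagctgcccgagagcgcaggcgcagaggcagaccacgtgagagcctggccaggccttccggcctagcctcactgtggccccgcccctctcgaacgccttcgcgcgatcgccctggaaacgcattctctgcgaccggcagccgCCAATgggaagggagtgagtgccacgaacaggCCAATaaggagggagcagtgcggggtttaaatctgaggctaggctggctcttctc
CCNB2, chr15:59104896-59105145, plus strand: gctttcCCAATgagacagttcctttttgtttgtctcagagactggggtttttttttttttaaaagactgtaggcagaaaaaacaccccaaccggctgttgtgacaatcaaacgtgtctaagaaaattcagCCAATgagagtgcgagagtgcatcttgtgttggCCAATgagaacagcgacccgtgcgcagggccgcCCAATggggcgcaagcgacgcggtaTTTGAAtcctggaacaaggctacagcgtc
The KIF20A stretch holds 2 CCAAT boxes, both on the opposite strand, 94 and 67 bases before the start, and no TTTGAA. CDK1 holds 1 TTTGAA and 1 CCAAT, 161 and 150 bases before the start. NUSAP1 holds 3 CCAAT boxes and no TTTGAA in this stretch. CCNB2 holds 4 CCAAT boxes and a TTTGAA 29 bases before the start. CCNB1 holds 2 CCAAT boxes and no TTTGAA. Other forms of the homology region were not marked in any stretch, so these letters do not part the cyclins. CENPI, the other member with a change above 1, is not shown because its start in that table lies 2854 bases inside the gene.

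Entry into mitosis was represented by 6 members, of which CDK1, CCNB1 and FOXM1 rose, and the median change was 0.61. CDK1 (Entrez Gene 983), the kinase that drives mitotic entry, was at 6.94, 7.03 and 6.95 on the log2 scale in untreated replicates 1 to 3 and at 8.32, 8.07 and 8.08 after decitabine. The lowest treated array was thus more than 1 log2 unit above the highest untreated one. The change was 1.18 (SE 0.13, n = 3 pairs), or 2.27-fold. The limma adjusted p was 0.00534, and 0.0181 without the block, where it ran from 0.0351 to 0.0951 with any single array left out and passed only without untreated replicate 1. CCNB1 (891), cyclin B1, the partner that activates CDK1, was at 8.43, 8.49 and 8.40 untreated and at 9.19, 9.02 and 9.09 after the drug. Its 3 treated values lay above all untreated ones, and the change was 0.66 (SE 0.12, limma adjusted p = 0.0239, and 0.122 without the block).

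CCNB2 (9133), cyclin B2, also a partner of CDK1, did not pass the test. It was at 7.49, 7.51 and 7.35 untreated and at 7.35, 7.23 and 7.20 after decitabine, a lower value in each pair, and the groups touched at 7.35. The change was -0.19 (SE 0.12), with a limma adjusted p of 0.369. The pair changes were 0.76, 0.53 and 0.69 for CCNB1 and -0.14, -0.28 and -0.15 for CCNB2, and the difference between the cyclins was not tested.

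FOXM1 (2305), the transcription factor of late cell cycle genes, was at 7.04, 7.08 and 7.07 untreated and at 7.56, 7.76 and 7.74 after the drug. The groups did not overlap, and the change was 0.62 (SE 0.12, limma adjusted p = 0.0266, and 0.146 without the block). The CDC25 phosphatases remove inhibitory phosphates from CDK1. CDC25C (995) was at 4.15, 5.13 and 5.10 untreated and at 5.14, 5.64 and 5.39 after decitabine, with untreated replicate 1 far below the other arrays. Its change was 0.60 (SE 0.17, limma adjusted p = 0.0726), and it was 0.40 without replicate 1 and 0.27 without untreated replicate 1 alone in the fit with no block. CDC25B (994) was at 7.25, 7.73 and 7.55 untreated and at 6.94, 7.36 and 7.37 treated, a change of -0.29 (SE 0.12, limma adjusted p = 0.194). It was lower in all 3 pairs, but the groups overlapped.

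All 7 mitotic kinases had a positive change in every pair, against 22.9% of all genes. Their treated values lay wholly above the untreated ones, against 11.3% of all genes and 19% of the 7442 of higher mean signal. Only AURKB and BUB1B passed the test (28.6%, against 7.79% of all genes). AURKB (9212), the kinase of the chromosomal passenger complex that corrects faulty attachments, was at 6.12, 6.33 and 5.96 untreated and at 6.76, 7.23 and 7.00 after decitabine. Replicate 2 was the highest array of each group. The change was 0.86 (SE 0.14), or 1.82-fold. The limma adjusted p was 0.0144, and 0.0879 without the block. BUB1B (701), which encodes the checkpoint protein BUBR1, was at 5.69, 6.32 and 6.38 untreated and at 6.42, 7.08 and 7.02 treated. Replicate 1 was low in both groups by about the same amount, and its treated value was just above the highest untreated one. The change was 0.71 (SE 0.12, limma adjusted p = 0.0172), and the adjusted p was 0.300 without the block.

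The other 5 kinases had changes of 0.25 to 0.39 and adjusted p-values of 0.116 to 0.241. They were AURKA, the spindle pole kinase, at 0.39, PLK1 at 0.33, the checkpoint kinases TTK and BUB1 at 0.32 and 0.31, and NEK2, which splits the centrosomes, at 0.25. NEK2 (4751), with the smallest of these changes, was at 5.61, 5.57 and 5.76 untreated and at 5.93, 5.80 and 5.96 treated (SE 0.12, limma adjusted p = 0.241).

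Of the 6 measured genes of the spindle checkpoint and anaphase, CDC20 rose (16.7%, against 7.79% of all genes) and none fell. The median change was 0.16, the lowest of the role groups. CDC20 (991), the activator of the anaphase-promoting complex, was at 7.96, 8.49 and 8.41 untreated and at 8.77, 9.11 and 8.85 after decitabine. The groups did not overlap, with untreated replicate 1 lowest. The change was 0.62 (SE 0.13, limma adjusted p = 0.0341, and 0.249 without the block). CDCA3 (83461), which helps degrade the mitosis inhibitor WEE1, had a change of 0.60 and just missed the threshold (adjusted p = 0.0525). It passed with quantile normalization (0.0491) and with median centring (0.0452).

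The gene of the cohesin cleaving protease separase and that of its inhibitor did not pass the test. PTTG1 (9232), securin, was at 4.21, 4.50 and 3.88 untreated and at 4.16, 3.86 and 4.23 treated, so its pair changes went both ways (-0.05, -0.64 and 0.35). Its change was -0.11 (SE 0.20, limma adjusted p = 0.772). ESPL1, separase, was at a difference of 0.13 (SE 0.16). Both genes were dim, with untreated means of 4.20 for PTTG1 and 3.81 for ESPL1, near the array medians over all genes of 3.40 to 3.95. The checkpoint genes MAD2L1 and BUB3 had differences of 0.18 and 0.01. PTTG1 has near-identical intronless copies in the genome, and whether its feature parts them from PTTG1 is not given in the sources used here.

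All 12 kinesins of the set were measured. KIF20A and KIF20B rose (16.7%, against 7.79% of all genes), none fell, and the median change was 0.31. KIF20A (10112), the motor that carries the passenger complex to the central spindle for cytokinesis, was at 7.53, 7.84 and 7.77 untreated and at 9.29, 9.47 and 9.42 after decitabine. Every treated array was more than 1 log2 unit above every untreated one. The change was 1.68 (SE 0.12), or 3.20-fold, the 156th highest of 14884 genes, with a limma adjusted p of 0.00147. The adjusted p was 0.00509 without the block, and 0.0111 to 0.0385 when any single array was also left out of that fit, so this call did not rest on a single array there.

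KIF20B (9585), its paralogue, which acts in the last steps of cytokinesis, was at 8.27, 8.65 and 8.29 untreated and at 9.03, 9.23 and 8.72 treated. The lowest treated value was above the highest untreated one. The change was 0.59 (SE 0.13, limma adjusted p = 0.0375, and 0.280 without the block). The pair changes were 1.76, 1.63 and 1.65 for KIF20A and 0.76, 0.58 and 0.43 for KIF20B.

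The other 10 kinesins did not pass the test. KIF2C, which takes down microtubules at centromeres, had a change of 0.47 (adjusted p = 0.0645), and KIF11, the motor that pushes the spindle poles apart, of 0.46 (adjusted p = 0.0695). Both passed in the limma fit over the 7442 genes of higher mean signal alone (adjusted p = 0.0261 for KIF2C and 0.028 for KIF11). KIFC1, a motor toward the minus end, KIF14 and KIF23, both of cytokinesis, and KIF18B had changes of 0.28 to 0.35, with groups that did not overlap. The changes of KIF22, KIF4A, KIF15 and KIF18A were -0.02 to 0.18, and that of KIF15 went from -0.01 to 0.01 with quantile normalization. KIF18A (81930), which limits chromosome movement, was at 7.75, 8.02 and 7.63 untreated and at 8.14, 7.81 and 7.39 treated. It was higher in pair 1 and lower in the other pairs, and the change was -0.02 (SE 0.17, limma adjusted p = 0.958). KIFC1 had 4 features, of which 2 held the same values on every array (mean change 0.35), another gave 0.40, and the dimmest gave -0.07. KIF4A has a near-identical intronless copy, KIF4B, so its value is uncertain.

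**Figure D2:**
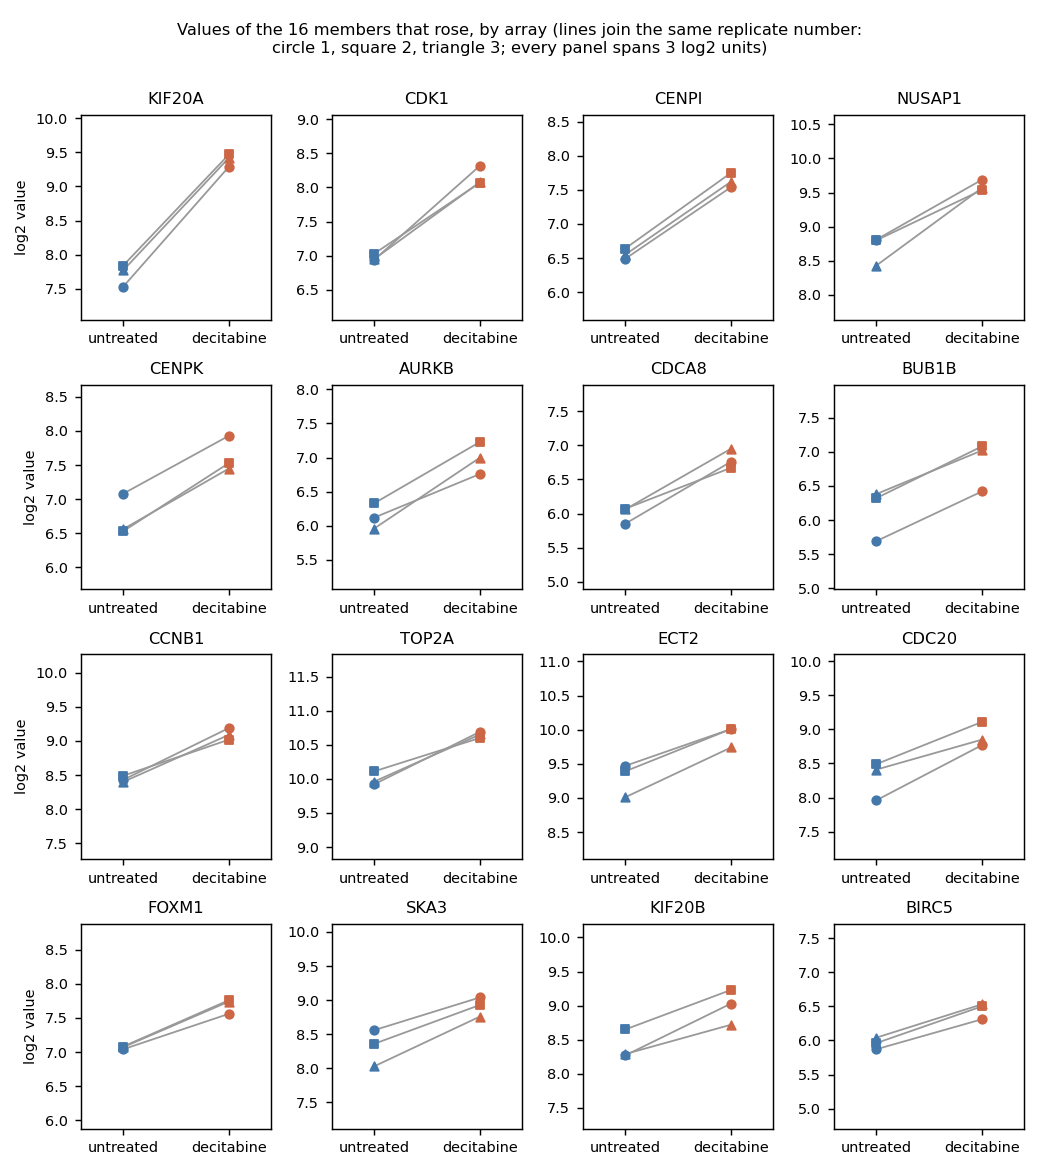
Log2 values of the 16 members that rose, with untreated arrays at left and decitabine arrays at right in each panel and lines joining arrays of the same replicate number. Each panel spans 3 log2 units around its own mean, so slopes can be compared but not levels. KIF20A is steepest (7.53 to 7.84 against 9.29 to 9.47), and BUB1B and CENPK show replicate 1 apart from the others in both groups.

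Of the 6 measured centromere and kinetochore members, CENPI, CENPK and SKA3 rose, and the median change was 0.38. CENPI and CENPK belong to the inner group of proteins that stays on the centromere through the cycle. CENPI (2491) was at 6.49, 6.64 and 6.55 untreated and at 7.54, 7.75 and 7.62 after decitabine. The pair changes were close together (1.05, 1.11 and 1.07), and the change was 1.08 (SE 0.12), or 2.11-fold. The limma adjusted p was 0.00510, and 0.0244 without the block, where it ran from 0.0471 to 0.133 with any single array left out and passed only without untreated replicate 1. CENPK (64105) was at 7.08, 6.53 and 6.56 untreated and at 7.93, 7.53 and 7.45 treated. Replicate 1 was the highest array in each group and the groups did not overlap. The change was 0.91 (SE 0.12, limma adjusted p = 0.00849, and 0.105 without the block).

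The SKA complex helps kinetochores hold on to microtubule ends, and its measured genes had changes of opposite sign. SKA3 (221150) was at 8.56, 8.36 and 8.03 untreated and at 9.04, 8.93 and 8.76 after the drug. The groups did not overlap, and the change was 0.59 (SE 0.13, limma adjusted p = 0.0331, and 0.256 without the block). SKA1 (220134) was at 7.51, 7.60 and 7.38 untreated and at 7.37, 7.16 and 6.92 treated. It was the single member whose treated values all lay below its untreated values, but its change of -0.35 (SE 0.13) did not pass the test (limma adjusted p = 0.152). CENPA, the histone H3 variant that marks the centromere, had a change of 0.17, and NDC80, which binds microtubules directly, of 0.11, with overlapping groups.

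Of 5 measured genes of the passenger complex, central spindle and cytokinesis, CDCA8, ECT2 and BIRC5 rose (60.0%, against 7.79% of all genes). The median change was 0.49. CDCA8 (55143), which encodes borealin, was at 5.85, 6.07 and 6.06 untreated and at 6.76, 6.67 and 6.95 after decitabine. Its groups were well apart, and the change was 0.80 (SE 0.13), or 1.74-fold. The limma adjusted p was 0.0163, and 0.0810 without the block. BIRC5 (332), survivin, was at 5.87, 5.96 and 6.04 untreated and at 6.31, 6.50 and 6.53 treated. The groups did not overlap, and the change of 0.49 (SE 0.12) was the smallest to pass (limma adjusted p = 0.0487, and 0.289 without the block). BIRC5 missed the threshold with quantile normalization (0.0540) and median centring (0.0556).

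INCENP, the scaffold of the passenger complex, had a change of 0.47 (SE 0.16, adjusted p = 0.116), and of 0.28 without replicate 1. With AURKB the genes of this complex had changes of 0.47 to 0.86 over all arrays. Of these 4 genes 3 passed, where 7.79% of all genes rose. ECT2 (1894), the exchange factor that turns on RhoA for the cleavage furrow, was at 9.47, 9.39 and 9.01 untreated and at 10.01, 10.01 and 9.74 treated. Replicate 3 was lowest in each group. The change was 0.63 (SE 0.12, limma adjusted p = 0.0260, and 0.218 without the block). PRC1 (9055), which bundles the microtubules of the central spindle, was at 8.27, 8.04 and 7.93 untreated and at 8.46, 8.21 and 8.45 treated, with overlapping groups. Its change was 0.29 (SE 0.13, limma adjusted p = 0.223).

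Of 4 measured spindle microtubule proteins NUSAP1 rose, and the median change was 0.38. NUSAP1 (51203), which bundles microtubules near chromosomes, was at 8.81, 8.80 and 8.43 untreated and at 9.69, 9.54 and 9.57 after decitabine. The treated arrays were all above the untreated ones, and the change was 0.92 (SE 0.14), or 1.89-fold. The limma adjusted p was 0.0119, and 0.0580 without the block. CKAP2 had a change of 0.42 and the microtubule polymerase CKAP5 of 0.35, neither past the test. HMMR (3161), a spindle assembly factor, was at 8.67, 8.70 and 8.83 untreated and at 9.24, 8.81 and 8.80 treated, so that most of its change of 0.22 (SE 0.16, limma adjusted p = 0.436) came from pair 1. TOP2A (7153), the topoisomerase that untangles chromosomes, was at 9.92, 10.11 and 9.96 untreated and at 10.69, 10.60 and 10.65 treated. The groups did not overlap, and the change was 0.65 (SE 0.13, limma adjusted p = 0.0268, and 0.128 without the block).

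The pairs did not contribute alike. The median change over the 47 members was 0.52 in pair 1, 0.28 in pair 2 and 0.35 in pair 3, and pair 1 had the largest change for 30 members. The arrays of replicate 1 had higher medians over all 48226 features (3.03 and 2.98, against 2.29 to 2.42). Untreated replicate 1 was the lowest untreated array for 25 of the 47 members. It was also the lowest untreated array in upper quartile (5.56, against 5.59 and 5.64) and in upper decile (7.25, against 7.43 in the others). After decitabine the upper decile was higher in pair 1 (7.33) and lower in pairs 2 (7.4) and 3 (7.32). The upper quartile was higher in pairs 1 (5.68) and 2 (5.63) and lower in pair 3 (5.58). Without replicate 1 the member median was 0.30, and 40 members kept a positive change. Members were higher in all 3 pairs in 37 cases and lower in all 3 pairs in 3 cases (CCNB2, CDC25B and SKA1), against 22.9% and 21.8% of all genes. Whether this spread between pairs is technical was not tested.

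Other genes of mitosis were read from lists of the same pathway, outside the 56. For comparison, the paired fit called 7.79% of all genes higher, and 11.6% of those of higher mean signal. Without the block 2.01% of all genes were higher. Of 21 measured further centromere and kinetochore genes 8 rose with the block and 0 without it, none fell and the median was 0.38. OIP5, which helps load CENPA, rose by 1.29 (adjusted p = 0.00584, and 0.0607 without the block), and CENPN by 1.03 (0.00625 and 0.0815). Of 18 measured regulators of mitotic entry and of the MuvB complex 7 rose with the block and 2 without it, none fell and the median was 0.51. CDC25A, the CDC25 phosphatase that also acts at the start of S phase, rose by 1.49 (adjusted p = 0.00410, and 0.0250 without the block), and RBL1, the pocket protein p107, by 1.25 (0.00688 and 0.0389). WEE1, the kinase that inhibits CDK1, rose by 0.61 (0.0275 and 0.145), and MYBL2, the B-MYB partner of MuvB, by 0.56 (0.0333 and 0.245). CCNA2, cyclin A2, had a change of 0.47 (0.0612), and CDKN1A had no named feature.

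Of 8 measured genes of the centrosome, spindle pole and augmin complex 4 rose with the block and 0 without it, none fell and the median was 0.50. STIL and CEP152, both of centriole duplication, rose by 0.74 and 0.69 (adjusted p = 0.0267 and 0.0254, and 0.106 and 0.225 without the block). Of 14 measured genes of cohesin and its regulators 3 rose with the block and 1 without it, none fell, and the median was 0.09. The acetyltransferase ESCO2, which locks cohesin on DNA in S phase, rose by 1.29 (0.00381 and 0.0123), and the histone kinase HASPIN by 0.87 (0.0103 and 0.0580). In the anaphase-promoting complex all 17 listed genes were measured, with a median of 0.12. With the block 2 rose (11.8%) and 1 fell (5.88%), against 7.79% and 5.37% of all genes, and 0 passed without it. ANAPC15 rose by 0.90 (0.0109 and 0.0545), whereas ANAPC16 fell by 0.64 on the log2 scale (0.0254 and 0.275).

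Of 7 further cytokinesis genes 1 rose with the block (14.3%, against 7.79% of all genes) and none fell. It was CEP55, of the final cut between daughter cells, with a change of 0.65 (adjusted p = 0.0247, and 0.131 without the block). CHMP4C, with the next smallest p-value, was lower in each pair, by -0.37 in the fit, and did not pass (limma adjusted p = 0.133). Of 8 condensin genes only SMC2 and SMC4 were measured, with changes of 0.36 and 0.05 that did not pass (0.124 and 0.831). The 30 measured kinesins outside the members had a median of 0.00. With the block 4 were higher (13.3%, against 7.79% of all genes) and none lower, and without it 0 were higher. KIF5C and KIF3C, motors of transport along axons, rose by 1.13 and 0.66 (0.0108 and 0.0208, and 0.340 and 0.594 without the block). Both were dim, with untreated means of 2.22 and 3.36, and their groups overlapped. In the list of DNA replication 18 of 23 measured genes rose with the block and 15 without it, and the median was 1.28. This list also holds regulators of the start of S phase, and CCNE2, cyclin E2, and the factor E2F8 had its smallest p-values. They rose by 2.56 and 2.35 (limma adjusted p = 0.000632 and 0.0011, and 0.00145 and 0.00234 without the block). Where the limma fit without the block called no gene of a list, the genes higher at an unadjusted p under 0.05 were 8 of the centromere and kinetochore list, 5 of the centrosome list, 4 of the other kinesins and 1 each of the anaphase-promoting complex and of cytokinesis, against 8.13% of all genes. The difference between these lists was not tested.

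**Figure D3:**
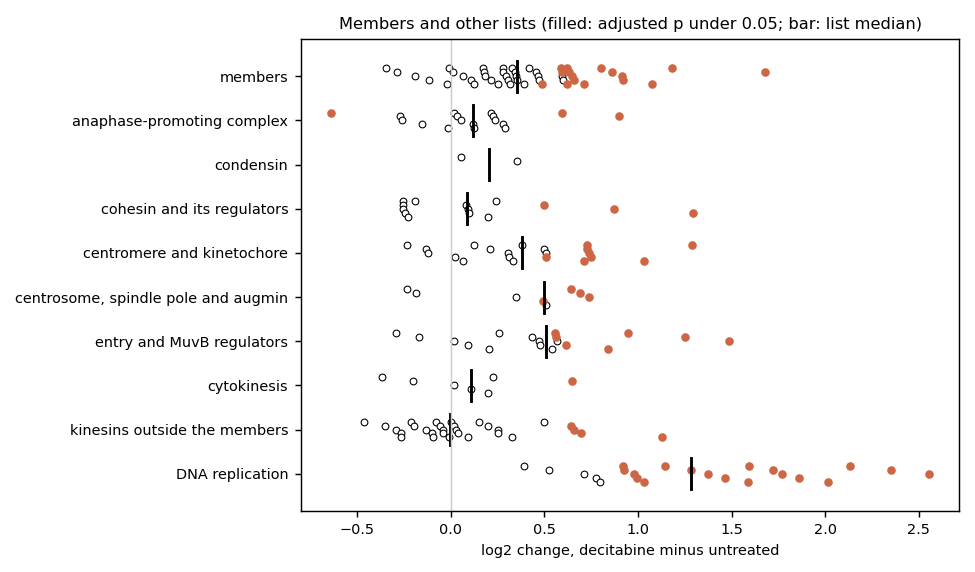
Log2 change, decitabine minus untreated, of each measured gene in the member set and in 9 other lists, with filled points for an adjusted p under 0.05 in the paired fit and a bar at each list's median. The member median is 0.35, that of the kinesins outside the members 0.00 and that of the DNA replication list 1.28.

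**Figure D4:**
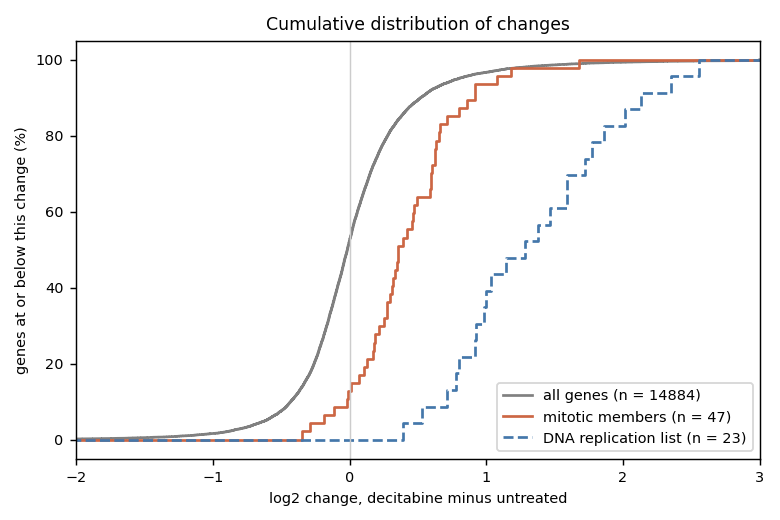
Cumulative share of genes, in percent, at or below each log2 change for all 14884 genes, the 47 mitotic members and 23 genes of the DNA replication list. The member curve lies to the right of that of all genes (medians 0.35 and -0.02), and the replication curve lies further right (median 1.28).

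The label of the line was set against markers. VIM, a mesenchymal marker, was at 9.13 to 9.68 untreated and 8.66 to 8.97 after decitabine, while the hormone receptors ESR1 and PGR were at 2.95 or below on all 6 arrays. The other measured luminal markers were mixed. KRT18 at 7.57 to 7.97 and GATA3 at 5.32 to 5.79 were not low over the 6 arrays, whereas FOXA1 was at 1.96 to 3.51. In the untreated arrays EPCAM was at 2.55 to 3.51 and KRT19 at 2.24 to 3.48. CAV1, CDH2, ERBB2 and CDH1 had no named feature. Of 7 measured luminal markers EPCAM and KRT19 rose, by 1.10 and 0.63 (adjusted p = 0.00829 and 0.0380, and 0.127 and 0.548 without the block). Of 4 measured mesenchymal markers AXL and ZEB1 fell, with changes of -1.79 and -0.51 (0.00138 and 0.0438, and 0.00361 and 0.480). The groups of KRT19 and of ZEB1 overlapped. CD44, the single measured mesenchymal marker with a positive change, was higher in each pair, by 0.27 in the fit, and did not pass (limma adjusted p = 0.214). Summed log2 values of the luminal list were 24.46 to 27.84 untreated and 26.07 to 30.38 treated, and those of the mesenchymal list 29.34 to 31.07 and 27.02 to 28.16. Of blood cell markers 2 of 5 were measured, and summed to 3.54 to 4.60 untreated and 4.38 to 5.28 treated, with CD14 higher by 0.72 (adjusted p = 0.0247, and 0.115 without the block). Fibroblast markers (2 of 6 measured) summed to 3.25 to 4.59 and 3.33 to 3.83, and endothelial ones (3 of 4) to 7.20 to 9.28 and 7.87 to 8.61, with no call. Their part in the member changes was not tested.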

How the data were processed

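The authors deposited 1 table of 48226 features for 6 arrays, and the submitters' processing notes name the Transcriptome Analysis Console. No source used here gives its version, the normalization, the background handling or the genome build. From their range (0.17 to 12.89) the deposited values were taken as log2 values, and since the base is not stated, folds rest on that reading. Features with a single symbol (16098) were named through the platform annotation, and the feature with the highest mean stood for each of 14884 genes. No intensity filter or further normalization was applied.

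Groups were compared in R 4.3.3 with limma 3.58.1 (lmFit, eBayes), two-sided, with replicate number as a block, because the comparison was set as paired by the numbers in the titles. Deviations from group means correlated at 0.558 to 0.682 between same-numbered arrays and at -0.00622 to -0.483 between others. Since deviations in each group sum to 0, positive values for the same number force negative ones among the others. Exactly identical values made up 6.44 to 8.28% of features between same-numbered arrays and 0.417 to 0.834% between others. The reason for this, and its effect on the paired SE, was not tested. P-values were adjusted by Benjamini-Hochberg over all 14884 genes. They cover the spread between these samples alone, and that spread may be technical. Members and lists were chosen with earlier results of these data known. Array values are printed for each member that rose and for the highest and lowest change in each role group; from other lists the 2 smallest p-values and CDC25A, CCNA2, WEE1, MYBL2 and CDKN1A are named. Further array values (CCNB2, CDC25C and markers) were chosen after they were seen. The fit was tested on simulated data with independent noise on each array, so that test does not bear on the identical values. Alternatives were no block, quantile normalization, median centring, leaving out the dimmer 50% of genes, feature means and leaving out arrays. The number of arrays limits the precision.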

Additional observations from a re-analysis of the deposited data

How the results depend on the processing

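The count of members that rose was 16 with the replicate block and 3 with no replicate block. It was 16 with quantile normalization, median centring and feature means (15, 15 and 16 of them the same genes). Over the 7442 genes of higher mean signal alone, where 17.6% of those genes rose, it was 21, adding CDC25C, CDCA3, KIF2C, KIF11 and CKAP2. With the block and without replicate 1, 2 or 3 it was 0, as for all 14884 genes, where 19 to 22 members and 9.49 to 13.3% of all genes were higher at an unadjusted p under 0.05. With no block and any single array left out it was 1 to 3: KIF20A kept its call each time, and CDK1 and CENPI kept theirs only without untreated replicate 1. No member fell under any alternative in limma, against 0 to 2 lower at an unadjusted p under 0.05. The member median was 0.30 to 0.44 under all alternatives. Members near 0 changed sign: KIF15 was 0.01 with quantile normalization. With arrays left out, in either fit, BUB3 ranged from -0.11 to 0.12 (-0.04 without untreated replicate 1 and -0.05 without decitabine replicate 1, no block), PTTG1 from -0.34 to 0.15 (0.04 without untreated replicate 2, no block), KIF4A from -0.02 to 0.18, KIF15 from -0.12 to 0.10 (0.09 without replicate 2), KIF18A from -0.23 to 0.18 (0.09 without replicate 3, and without untreated replicate 2 with no block) and CENPA from -0.03 to 0.38.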
